A study of Mus musculus with 33 samples.

Results

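The genes described here are 8 transcription factor genes of the hypothalamus, the midbrain and the dorsal neural tube: Otp, Hmx2, Msx3, Tal2, Pax7, Pax5, Otx2 and Foxd1. They were picked by name out of the 14664 gene symbols of the RNA count table, with their difference between Dlx1/2 knockout and wild-type tissue already known. That difference is therefore a description, and where a gene's call in the fit across all genes is given, it supports nothing. The tissue was the ganglionic eminences, the swellings of the embryonic ventral forebrain, of CD1 mice at e13.5. One group was wild type and the other was Dlx1/2-/-, with no other allele or treatment named in the labels. Each genotype had 4 RNA-seq libraries made with RNA of 4 embryos, 2 male and 2 female. Whether each library stands for 1 embryo is not stated, so the spread between libraries may be technical in part. Which exons the knockout alleles remove is not known here.

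Regional transcription factors of this kind divide the neural tube into territories. Each is normally held to a stretch of the body axis or to a dorsal or ventral band, and much of the patterning rests on homeodomain factors that repress the programmes of neighbouring territories. The ganglionic eminences are marked by DLX homeodomain factors, which drive GABAergic neuron differentiation. Otp specifies neuroendocrine neurons of the hypothalamus, Hmx2 acts in the hypothalamus and inner ear, and Foxd1 is a forkhead factor of the ventral diencephalon that is also found in embryonic stroma and meninges. Tal2 is a basic helix-loop-helix factor needed for GABAergic neurons of the midbrain. Pax5 belongs to the midbrain-hindbrain boundary, Otx2 to the embryonic forebrain and midbrain and to the choroid plexus and retinal pigment epithelium. Msx3 and Pax7 mark the dorsal neural tube, and Pax7 also the roof of the midbrain.

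The libraries held 117, 20.2, 23.5 and 24.1 M counts in wild-type replicates 1 to 4 and 42.5, 48.3, 14.4 and 25.8 M in knockout replicates 1 to 4. Levels are given as CPM, the reads of a gene relative to the library total after scaling for library composition. On the total count, 1 read was worth 0.00855 CPM in the deepest library and 0.0692 CPM in the shallowest. Both deleted genes were low in knockout: Dlx1 was at 124 ± 4.52 CPM in wild type and 23.4 ± 1.96 in knockout, and Dlx2 at 21.2 ± 5.85 and 1.27 ± 0.255 (SD, n = 4). All 20 genes of a list of eminence identity were in the table. Among these 20, 12 fell and 1 rose in knockout (edgeR, adjusted over all genes), or 12 and 4 with the replicate number as a block. Over all genes tested, 0.896% fell and 0.586% rose. With the block 313 fell and 315 rose of the 14502 genes tested other than the members. The 12 include the deleted genes Dlx1 and Dlx2, and the 1 that rose was Gsx1, which is also in the dorsal list below. Those that fell included Dlx5 (5.34 to 0.518 CPM), Dlx6 (15.0 to 2.36 CPM) and Slc32a1, the vesicular GABA transporter (log2 -3.23). Dlx1 has an antisense partner, Dlx1as, also in the table, and the strand setting of the counting is not known here.

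Otp, Msx3, Tal2, Pax7, Pax5 and Hmx2 were scarce in wild-type eminences and several-fold higher in knockout, Otx2 was 2.30-fold higher, and Foxd1 did not separate the genotypes. In 7 of the 8 genes every knockout library was above every wild-type library, and the same 7 passed the edgeR test as higher. The fitted log2 change was at least 1 for these 7. Over all 14510 genes tested, 2.88% had every knockout library above every wild-type library (5.97% were without overlap in either direction), 0.586% passed as higher and 0.551% had a fitted log2 change of at least 1. The genes were chosen on this contrast, so nothing is read from these counts. In bulk tissue, more cells that express a gene and more RNA per cell cannot be told apart.

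**Figure D1:**
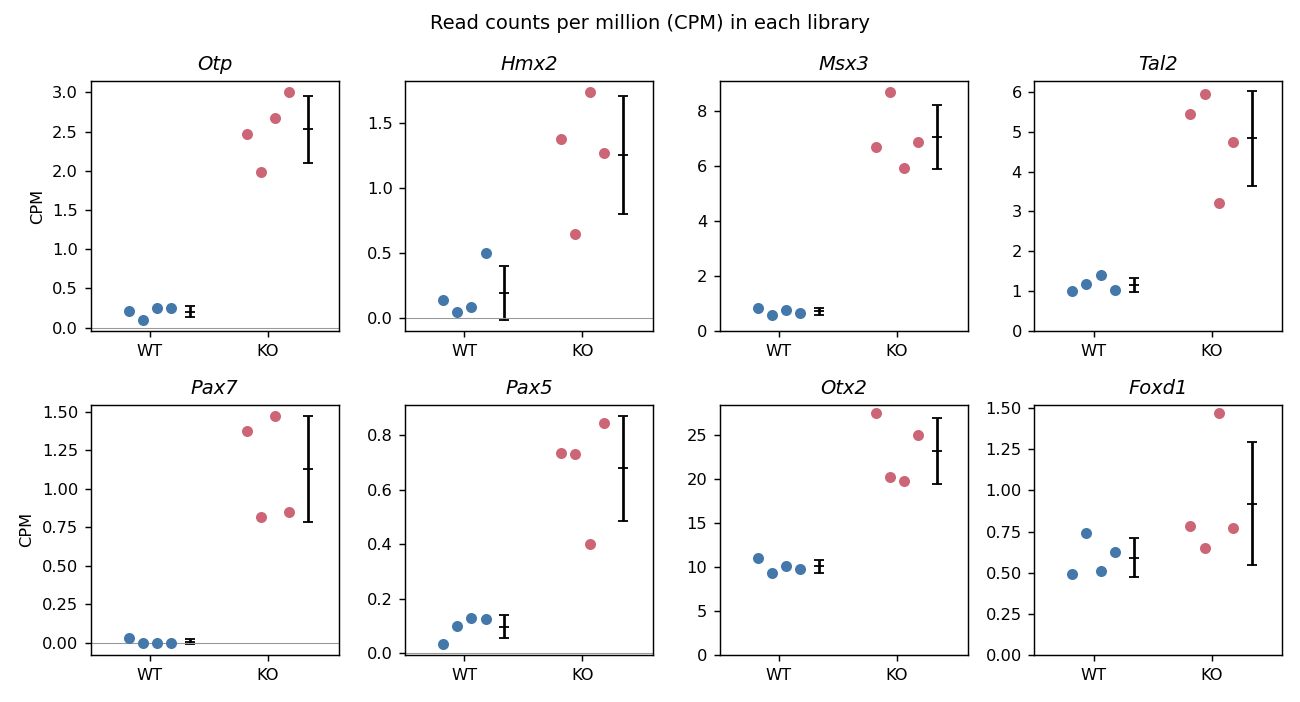
Level of each of the 8 genes in CPM (vertical axis, a separate linear scale per gene) in the 4 wild-type (WT) and 4 Dlx1/2 knockout (KO) libraries. Points are libraries in the order of replicates 1 to 4, and bars are the mean ± SD. The genotypes do not overlap for 7 genes, and they overlap for Foxd1.

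Of the hypothalamic factors, Otp had 24, 2, 6 and 6 reads in wild-type replicates 1 to 4 and 104, 95, 40 and 78 in the knockout replicates. As levels these were 0.210, 0.0989, 0.255 and 0.250 CPM in wild type and 2.47, 1.99, 2.67 and 3.0 CPM in knockout. Wild-type replicates 2 to 4 held only a few reads each, the deeper replicate 1 was at a like level on more reads, and every knockout library was above every wild-type library. The means were 0.203 ± 0.0725 and 2.53 ± 0.425 CPM (SD, n = 4), a 12.4-fold difference. Reads summed over libraries gave a knockout to wild-type ratio of 11.8 after division by the library totals, with a 95% counting interval of 8.38 to 16.9. This interval, like the others of this kind below, covers counting error only.

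Hmx2 was low and uneven in wild type, with 16, 1, 2 and 12 reads, or 0.140, 0.0495, 0.0849 and 0.50 CPM. The knockout libraries held 58, 31, 26 and 33 reads, or 1.38, 0.648, 1.74 and 1.27 CPM. Wild-type replicate 4 came closest to the knockout libraries, and knockout replicate 2 closest to wild type. The fold of the means was 6.50, and it was 13.8 without wild-type replicate 4. Hmx2 no longer passed the edgeR test without wild-type replicate 1, 2 or 3 or without knockout replicate 1, 3 or 4.

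Hmx3, the close relative that lies next to Hmx2 on chromosome 7, was in the table with too few reads to be tested. It had 3, 0, 0 and 3 reads in wild type and 24, 7, 16 and 7 in knockout, a read ratio of 12.7 (counting interval 5.46 to 36.1). Its knockout levels were 0.569, 0.146, 1.07 and 0.269 CPM. The order of the knockout libraries was the same for Hmx3 as for Hmx2, with replicate 3 highest, then replicates 1, 4 and 2. Replicates 4 and 2 both held 7 Hmx3 reads, so their order for Hmx3 came from library depth alone.

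Foxd1 overlapped between the genotypes. It was at 0.490, 0.742, 0.509 and 0.625 CPM in wild type and 0.783, 0.648, 1.47 and 0.770 CPM in knockout, on 98 and 106 reads in all. One knockout library, replicate 3, stood above the rest with 22 reads. The fold of the means was 1.55, and 1.24 without that library. Of the same-numbered pairs of libraries, 3 of 4 had the higher level in knockout.

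Among the midbrain factors, Tal2 was measured on 197 wild-type and 684 knockout reads. Its levels were 1.01, 1.19, 1.40 and 1.04 CPM in wild type and 5.43, 5.94, 3.21 and 4.73 CPM in knockout. All wild-type libraries expressed Tal2, and the lowest knockout library was 2.29-fold above the wild-type library of the same number. The means of 1.16 ± 0.179 and 4.83 ± 1.19 CPM (SD, n = 4) differed 4.16-fold.

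Pax5 rested on the fewest knockout reads, 31, 35, 6 and 22, against 4, 2, 3 and 3 in wild type. Levels were 0.0350, 0.0989, 0.127 and 0.125 CPM in wild type and 0.735, 0.732, 0.401 and 0.846 CPM in knockout. Wild type was at a few reads throughout, and the shallowest knockout library was the lowest of its group. The read ratio was 11.04 (counting interval 6.03 to 22.1), and the fold of the means was 7.03.

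Otx2 had the most reads of the set, between 189 and 1261 in each wild-type library. Its levels were 11.04, 9.35, 10.1 and 9.83 CPM in wild type and 27.6, 20.3, 19.8 and 25.1 CPM in knockout. Both groups were tight, and the lowest knockout library lay well above the highest wild-type library. The fold of the means was 2.30, and between 1.96 and 2.55 in the same-numbered pairs.

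For the dorsal factors, Msx3 had 98, 12, 18 and 16 reads in wild type and 283, 416, 89 and 179 in knockout. Its levels were 0.858, 0.593, 0.764 and 0.667 CPM in wild type and 6.71, 8.70, 5.95 and 6.89 CPM in knockout. Msx3 was thus present in every wild-type library at a low level and high in every knockout library. The means were 0.721 ± 0.115 and 7.06 ± 1.16 CPM (SD, n = 4), and the ratio within same-numbered pairs ran from 7.79 to 14.7.

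Pax7 was nearly absent from wild type. It had 3 reads in the deepest wild-type library and 0 in the other 3, where a count of 0 allows up to 0.148, 0.127 and 0.125 CPM. The knockout libraries held 58, 39, 22 and 22 reads, or 1.38, 0.815, 1.47 and 0.846 CPM. At the mean knockout level of 1.13 CPM, wild-type replicate 1 would have held 129 reads and the other 3 wild-type libraries 76.4 reads together. The read ratio was 66.2, with a counting interval of 22.2 to 325 that reflects the 3 wild-type reads. By fitted log2 change Pax7 was rank 1 of the genes tested, Otp rank 5, Msx3 rank 7, Pax5 rank 8, Hmx2 rank 9, Tal2 rank 12, Otx2 rank 42 and Foxd1 rank 294.

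The lowest second-highest value of any gene in the deposited table was 0.504 CPM, so each listed gene was above 0.5 CPM in at least 2 libraries. Otp, Hmx2, Pax7 and Pax5 had no wild-type library above 0.5 CPM on the total count and are in the table through their knockout libraries alone. Genes of this kind could appear only if they were higher in knockout. Msx3, Tal2 and Otx2 had all 4 wild-type libraries above that level and Foxd1 had 3. In the authors' deposited table the log2 changes of knockout over wild type were 3.58 for Otp, 2.73 for Hmx2, 3.26 for Msx3, 2.10 for Tal2, 5.70 for Pax7, 3.16 for Pax5, 1.20 for Otx2 and 0.56 for Foxd1.

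The 8 genes did not keep 1 order among the knockout libraries. Hmx2, Pax7 and Foxd1 were highest in replicate 3, then in replicates 1, 4 and 2. Tal2 and Msx3 had the opposite ends, with replicate 2 highest and replicate 3 lowest. Parts of the first order rested on small gaps at few reads. Pax7 was at 1.47 CPM in replicate 3 (22 reads) and 1.38 CPM in replicate 1 (58 reads). In replicates 4 and 2 Pax7 was at 0.846 CPM (22 reads) and 0.815 CPM (39 reads). The highest knockout library exceeded the lowest 2.68-fold for Hmx2, 1.80-fold for Pax7 and 2.27-fold for Foxd1, against 1.85-fold for Tal2 and 1.46-fold for Msx3. The coefficient of variation over the knockout libraries was 36.0% for Hmx2, where counting alone would give 17.3%, and 24.6% for Tal2, where it would give 8.81%. For Pax5 it was 28.4%, where counting alone would give 23.5%.

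Other features of the knockout libraries differed in the same libraries. Replicate 2 had the highest level of Tal1, the blood and midbrain relative of Tal2, at 9.55 CPM against 3.01 to 5.08 CPM in the other knockout libraries. Replicate 3 had the highest level of Pdgfra, a gene of mesenchyme and oligodendrocyte precursors, at 70.1 CPM. It was also the shallowest library. The part of these features in the order of the members was not tested.

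**Figure D2:**
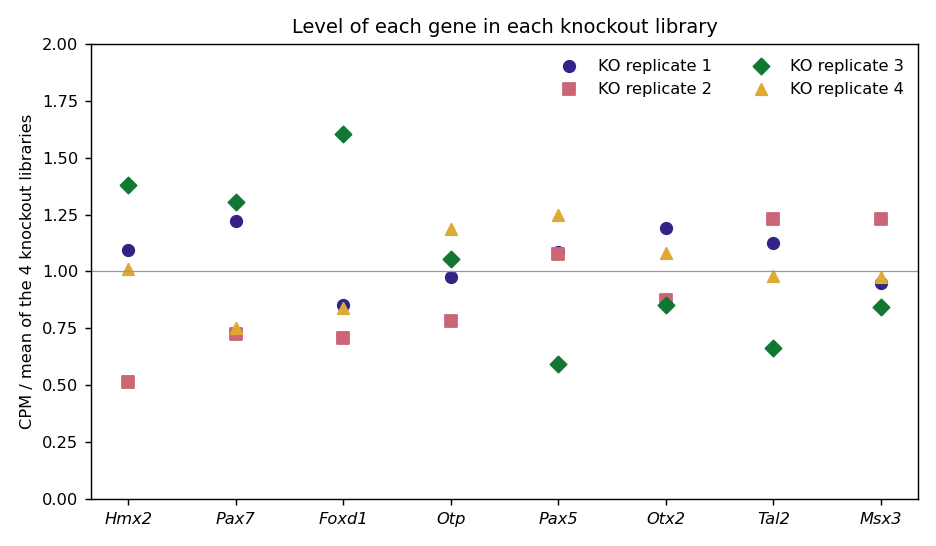
Level of each gene in each of the 4 knockout libraries, divided by the mean of those 4 libraries (vertical axis, linear, no unit), with 1 marker shape per replicate. Replicate 3 is highest for Hmx2, Pax7 and Foxd1 and lowest for Pax5, Otx2, Tal2 and Msx3.

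Replicates 1 and 2 and replicates 3 and 4 were also taken apart, because libraries deviated together within these sets. Wild-type replicate 1 correlated best with knockout replicate 2 (0.60) and wild-type replicate 2 with knockout replicate 1 (0.39). Every correlation between the sets was negative. Levels were centred within each genotype, so positive correlations within the sets force negative ones between them. The negative values are therefore no separate evidence for the sets. Otp was 14.4-fold higher in knockout in replicates 1 and 2 and 11.2-fold in replicates 3 and 4, and Msx3 was 10.6-fold and 8.97-fold higher. Tal2 gave 5.18-fold and 3.25-fold, and Otx2 2.35-fold and 2.25-fold. The values were 10.7-fold and 5.14-fold for Hmx2 and 10.95-fold and 4.94-fold for Pax5. Foxd1 was 1.16-fold higher in the first pair of replicates and 1.98-fold in the other. In replicates 3 and 4 alone, Hmx2 did not pass the edgeR test and Pax5 had too few reads to enter it.

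The bases just before the start of each gene were taken from RefSeq (GRCm38.p6), where all 8 genes matched, with 12 annotated starts in all. Windows of 250 bases are printed here for Otp, Msx3, Tal2 and Pax7, which cover the 3 territories, and for the Otx2 start that is richest in homeodomain core letters. They are written 5′ to 3′ on the strand of the gene, and capitals mark every TAAT on either strand, the core that many homeodomain proteins, DLX factors included, can recognise. The windows are Otp chr13:94875386-94875635 (+), Msx3 chr7:140049089-140049338 (-), Tal2 chr4:53779451-53779700 (+), Pax7 chr4:139832969-139833218 (-) and Otx2 chr14:48665110-48665359 (-).
Otp: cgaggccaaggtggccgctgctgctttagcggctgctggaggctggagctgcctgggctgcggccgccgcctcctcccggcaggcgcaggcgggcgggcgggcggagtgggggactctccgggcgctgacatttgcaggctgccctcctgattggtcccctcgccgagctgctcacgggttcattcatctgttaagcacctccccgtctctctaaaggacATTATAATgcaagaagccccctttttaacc
Msx3: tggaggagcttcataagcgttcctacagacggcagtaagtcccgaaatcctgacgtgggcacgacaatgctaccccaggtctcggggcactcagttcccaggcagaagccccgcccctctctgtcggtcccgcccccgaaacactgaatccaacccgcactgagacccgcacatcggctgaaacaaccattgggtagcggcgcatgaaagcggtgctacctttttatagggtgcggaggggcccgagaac
Tal2: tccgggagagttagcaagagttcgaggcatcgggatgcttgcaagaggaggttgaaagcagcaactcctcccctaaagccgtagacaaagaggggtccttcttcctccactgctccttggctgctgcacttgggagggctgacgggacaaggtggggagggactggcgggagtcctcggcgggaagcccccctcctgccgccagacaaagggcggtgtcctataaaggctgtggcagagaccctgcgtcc
Pax7: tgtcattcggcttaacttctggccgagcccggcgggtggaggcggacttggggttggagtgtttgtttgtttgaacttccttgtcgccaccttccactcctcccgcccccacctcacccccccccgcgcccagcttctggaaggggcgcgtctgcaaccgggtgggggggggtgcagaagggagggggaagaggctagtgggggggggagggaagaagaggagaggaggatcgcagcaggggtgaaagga
Otx2: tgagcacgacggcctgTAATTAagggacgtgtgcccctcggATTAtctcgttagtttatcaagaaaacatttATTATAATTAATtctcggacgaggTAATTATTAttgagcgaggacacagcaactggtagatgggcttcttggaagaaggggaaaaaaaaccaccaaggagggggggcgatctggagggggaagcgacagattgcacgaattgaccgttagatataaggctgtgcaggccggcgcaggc

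The windows differed in these letters. The Otp window held 2 TAAT matches, both in 1 run of 8 bases near the start, and the windows of Msx3, Tal2 and Pax7 held none. The Otx2 window held 10, with 3 of the longer palindrome TAATTA, each of which counts as 2 TAAT matches because both strands read it. Among all 32851 windows of the same length, 54.9% had at least 1 TAAT on either strand and 4.84% had a TAATTA. For 10 or more TAAT the share was 0.341%, and for 3 or more TAATTA it was 0.0487%. These limits are the counts of the Otx2 window itself, which was picked as the richest of 4 Otx2 starts, so nothing is read from these shares. Of the 12 windows of these genes, 6 had a TAAT and 2 a TAATTA, both of the latter at Otx2 starts. Those with a TAAT were the Otp window, the Pax5 window and the windows of all 4 Otx2 starts, of which 2 overlap each other. Their GC content ran from 42.0% to 70.0%, where the median window had 52.4%. These are matches of letters, and the binding and histone peaks, which are in another build (mm9), were not set beside them.

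The genes beside the members on their chromosomes were compared next, to see whether a difference extended over the neighbourhood. Taking the 2 nearest tested protein-coding genes on each side gave 32 neighbours. Hmx3, which lies between Hmx2 and Acadsb and had a read ratio of 12.7, had too few reads to be tested and is not among them. None of the 32 passed the edgeR test, 3 had an unadjusted p under 0.05, and DESeq2 called 1 higher and 0 lower. Of the 14502 genes tested other than the members, 1109 had such a p, and DESeq2 called 221 higher and 240 lower. The replicate block called 315 of those 14502 higher and 313 lower. The fitted log2 changes of the 32 neighbours lay between -0.31 and 0.54 with a median of 0.06. Beside Otp, Tbca was at 111 ± 23.1 CPM in wild type and 124 ± 22.7 in knockout and Wdr41 at 45.3 ± 4.38 and 47.9 ± 6.03 (SD, n = 4). Beside Msx3, Caly was at 9.49 ± 1.51 and 9.52 ± 1.73 CPM. With the replicate block 3 neighbours passed as higher, all named after their values were seen: Bub3 beside Hmx2, Igsf21 beside Pax7 and Peli2 near Otx2. The edgeR adjusted p was 0.0913 without and 0.00938 with the block for Bub3 (log2 0.29 and SE 0.07 without it), 0.851 and 0.0398 for Igsf21 (log2 0.54, SE 0.29) and 0.375 and 0.0301 for Peli2 (log2 0.34, SE 0.12). Of the members, only Pax7 and Pax5 overlap another annotated gene, and none of the genes that overlap them is in the table.

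**Figure D3:**
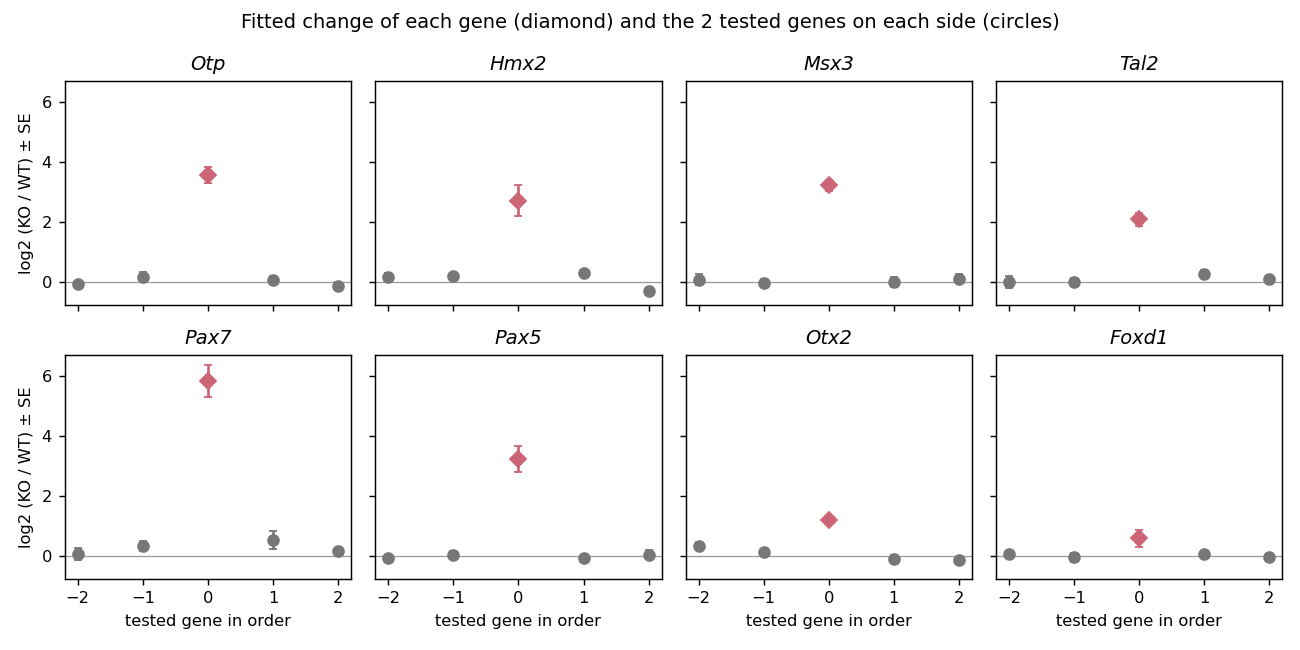
Fitted log2 change of knockout over wild type with its SE (vertical axis) for each of the 8 genes (diamond at 0) and the 2 nearest tested protein-coding genes on each side in chromosome order (circles; horizontal axis, position in order and not distance). The neighbours lie between -0.31 and 0.54.

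Most other genes of the same territories did not pass the test. Of 74 further genes listed for hypothalamus and diencephalon, midbrain or dorsal neural tube, 34 were in the table and 33 were tested. Of these, 2 rose and 2 fell (edgeR, adjusted over all genes), where 0.586% of all genes tested rose and 0.896% fell. The median log2 change of these 33 was -0.06, and -0.0027 over all genes tested other than the members. With the replicate block 7 rose and 3 fell, and DESeq2 called 6 higher and 4 lower. Of the 14502 genes tested other than the members, 315 rose and 313 fell with the block, and DESeq2 called 221 higher and 240 lower. An unadjusted p under 0.05 was found for 14 of the 33, against 1109 of those 14502.

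In the hypothalamic and diencephalic list, 14 genes besides the members were tested, of which 1 rose and 2 fell. Lhx9, a LIM homeodomain gene of the thalamus and pallium, rose from 22.1 ± 1.86 to 34.2 ± 1.76 CPM (log2 0.63, SE 0.09, edgeR adjusted p = 0.00605). Vax1, a homeodomain gene of the ventral forebrain and optic stalk, fell from 3.46 ± 0.231 to 1.63 ± 0.0268 CPM (SD, n = 4), and lost its call in replicates 3 and 4 alone (edgeR adjusted p = 0.0874). Among those that did not pass, Sim1, which acts with Otp in neuroendocrine neurons, was at 11.2 ± 2.46 CPM in wild type and 12.6 ± 2.97 in knockout (SD, n = 4). Nkx2-1, of the hypothalamus and the medial eminence, was at 19.9 ± 2.29 and 23.4 ± 4.63 CPM, and the neuropeptide precursor Pomc at 2.36 ± 0.579 and 2.06 ± 0.283 CPM. Rax and Foxb1, defining genes of the hypothalamic primordium and the mammillary area, were not in the table used here. With the replicate block Gbx2 and Pou3f2 rose as well, named after their values were seen. Gbx2 was at 2.78 ± 0.510 and 5.46 ± 1.57 CPM (edgeR adjusted p = 0.0748 without and 0.00357 with the block).

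Of 7 further midbrain genes tested, none was called by edgeR, 1 had an unadjusted p under 0.05, and DESeq2 called 0 higher and 1 lower. The gene that passed with DESeq2 and with the replicate block was Helt, a midbrain GABAergic factor named after its values were seen. It was lower in knockout, at 3.21 ± 1.02 CPM in wild type and 1.27 ± 0.506 in knockout (edgeR adjusted p = 0.0659 without and 0.00192 with the block). Tal2, which acts in the same midbrain lineage, was higher. Tal1 was at 3.76 ± 0.288 and 5.54 ± 2.81 CPM (SD, n = 4), and was highest in knockout replicate 2 (9.55 CPM). Knockout replicates 1 (4.53 CPM) and 4 (5.08 CPM) were also above the highest wild-type library (4.01 CPM). Knockout replicate 3 (3.01 CPM) was below every wild-type library. Gata2 and Gata3, partners of Tal2 in that lineage, were not in the table used here.

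Of 14 further dorsal and roof plate genes tested, 1 rose and 0 fell, or 4 and 0 with the replicate block. An unadjusted p under 0.05 was found for 8 of the 14, against 1109 of the 14502 genes tested other than the members. DESeq2, which called 221 higher and 240 lower of those 14502, called 4 higher and 1 lower of the 14. The lower one was Rspo2, a Wnt agonist of the roof plate named after its values were seen, at 2.11 ± 0.979 CPM in wild type and 0.601 ± 0.255 in knockout (edgeR adjusted p = 0.103 without and 0.0789 with the block). Gsx1, a homeodomain gene of the dorsal spinal cord and of eminence precursors, rose from 0.249 ± 0.0948 to 2.96 ± 0.645 CPM (log2 3.59, SE 0.28, edgeR adjusted p = 9.12e-05). Like Otp, it had no wild-type library above 0.5 CPM. The genes added by the block included Zic4 and Gsx2, named after their values were seen. Zic4, a dorsal midline zinc finger gene, was at 9.62 ± 2.43 CPM in wild type and 16.4 ± 1.34 in knockout (edgeR adjusted p = 0.0676 without and 0.0158 with the block). Its relative Zic1 was at 51.7 ± 13.0 and 63.0 ± 5.57 CPM and did not pass.

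**Figure D4:**
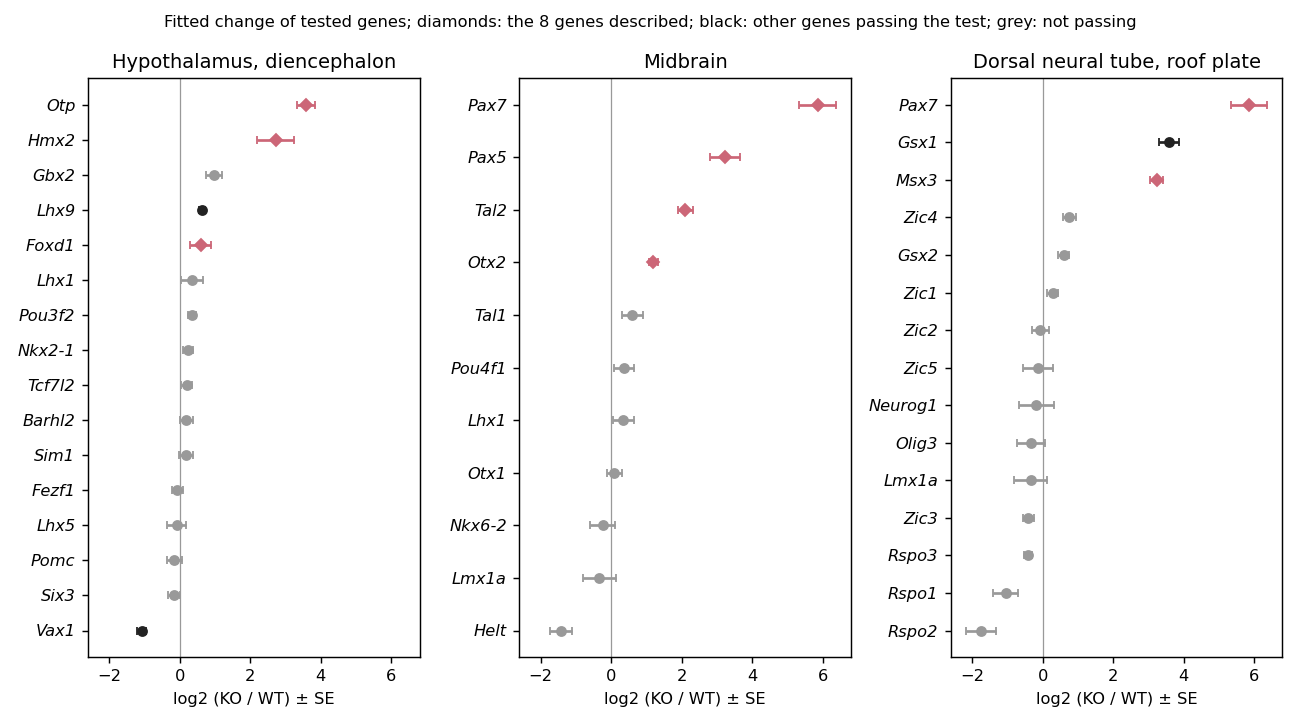
Fitted log2 change of knockout over wild type with its SE (horizontal axis) for the tested genes of each regional list. Diamonds are the genes described here, black circles the other genes that passed the edgeR test (such as Gsx1 and Lhx9, higher, and Vax1, lower) and grey circles those that did not. Some tested genes of the lists are not drawn.

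Close relatives of the members by family were read in the same way. Of 20 paralogs listed, 7 were in the table and 6 were tested. None of the 6 was called by edgeR, 0 had an unadjusted p under 0.05, and DESeq2 called 0 higher and 0 lower. The remaining relative in the table, Hmx3, had too few reads to be tested. It had 6 reads in wild type and 54 in knockout, a read ratio of 12.7 (counting interval 5.46 to 36.1). Pax6 was at 46.4 ± 3.46 CPM in wild type and 48.3 ± 5.28 in knockout and Otx1 at 0.708 ± 0.159 and 0.779 ± 0.0924 CPM (SD, n = 4). Pax3, Msx1 and Msx2, which accompany Pax7 and Msx3 in the dorsal neural tube, were not in the table used here.

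The genes whose profile over the 8 libraries was most like each of the leading members were found by the root mean square difference of centred log2 CPM. For Otp the nearest was Gsx1, at 0.220 log2 units, followed by Robo3 (0.860) and Pmch (0.924). Gsx1 was also nearest to Msx3 (0.434) and to Pax7 (0.630). For Tal2 the nearest were Robo3 (0.362), Pmch (0.371) and Npnt (0.417). The remaining near genes were Pmch (0.688) and Tfap2b (0.746) for Msx3, and Tfap2b (1.09) and Pmch (1.26) for Pax7. Each of these is likeness to a profile that is low in wild type and high in knockout, and is given as a description.

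Gsx1 was at 0.219, 0.148, 0.255 and 0.375 CPM in wild type and 3.68, 2.11, 3.07 and 2.96 CPM in knockout, so its levels and fold of 11.9 were close to those of Otp. Pmch, which encodes the precursor of melanin-concentrating hormone of hypothalamic neurons, was at 0.376, 0.346, 0.297 and 0.125 CPM in wild type and 1.23, 1.48, 1.00 and 1.27 CPM in knockout. Pmch passed as higher (log2 2.03, SE 0.28, edgeR adjusted p = 0.00467). It overlaps the gene Parpbp, which is also in the table, and no source used here gives the strand setting of the counting. Tfap2b, an AP-2 factor of neural crest and dorsal neural cells, was at 0.137 ± 0.133 CPM in wild type and 0.948 ± 0.239 in knockout. Robo3, a receptor of commissural axons, was at 8.08 ± 0.410 and 28.0 ± 3.93 CPM, and Npnt, a matrix protein, at 2.84 ± 0.251 and 7.30 ± 1.49 CPM (SD, n = 4).

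Markers of other tissues that express the members were read in the same libraries. Otx2 also marks choroid plexus and retinal pigment cells. Of 12 other choroid plexus genes, 6 were in the table and 5 tested, and none was called by edgeR or by DESeq2. An unadjusted p under 0.05 was found for 2 of the 5, against 1109 of the 14502 genes tested other than the members. The 2 genes, named after their values were seen, were both higher in knockout: Aqp1 at 0.536 ± 0.155 and 1.18 ± 0.621 CPM and Foxj1 at 5.76 ± 0.326 and 7.37 ± 1.30 CPM in wild type and knockout (SD, n = 4). The summed level of the 5 was 7.60 to 9.05 CPM in wild type and 8.09 to 11.8 CPM in knockout. Ttr, the defining choroid plexus transcript, was at 0.127 to 0.708 CPM in wild type and at 0.00 to 1.94 CPM in knockout, with the highest value in replicate 2 and 0 reads in replicate 3, the shallowest library. Of 9 other eye and pigment genes only Mitf was in the table, at 3.30 ± 0.615 and 2.70 ± 0.394 CPM (SD, n = 4).

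Foxd1 also marks stroma and meninges. Of 12 other mesenchyme and meninges genes tested, Pdgfra alone rose, from 17.7 ± 2.46 to 51.0 ± 15.0 CPM, and the summed level was 101 to 119 CPM in wild type and 122 to 165 CPM in knockout. Without Pdgfra, the other 11 summed to 83.3 to 103 CPM in wild type and 79.1 to 110.0 CPM in knockout, which overlap. Of 7 erythroid, 10 microglia and 10 endothelial genes tested, none was called by edgeR or by DESeq2. An unadjusted p under 0.05 was found for 0, 1 and 0 of them, and the replicate block called 1 microglia gene, Mrc1, as higher. Summed levels in wild type and knockout were 1697 to 1927 and 1440 to 2068 CPM for the erythroid genes, 42.3 to 62.5 and 48.5 to 65.3 CPM for the microglia genes, and 180 to 243 and 170 to 224 CPM for the endothelial genes. The part of these cells in the members' levels was not tested.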

How the data were processed

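RNA-seq counts of 4 wild-type and 4 Dlx1/2 knockout libraries were used. The authors deposited raw read counts per gene symbol, with their own log2 fold change, log2 mean CPM, likelihood ratio score, p-value and adjusted p-value, per the file headers. Per the submitters' processing notes, reads were aligned with STAR 2.4.2a to mm9. No source used here gives the counting tool, annotation or strand setting. The labels name polyA RNA and a ribosome-depletion kit, and which of them applies is not stated. The binding and histone peak files were not used here, because no mm9 gene positions were at hand, so the planned overlap with start sites was not run.

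Genotypes were compared on these counts by edgeR 4.0.16 (R 4.3.3), using its quasi-likelihood F test after TMM scaling; filterByExpr (minimum count 10) left 14510 genes, and p-values were Benjamini-Hochberg adjusted with a threshold of 0.05, with DESeq2 1.42.0 as an alternative. Tested on simulated data of 14510 genes in this comparison, the procedure recovered 36% of genes changed 1.5-fold, 80% at 2-fold, 98% at 4-fold and 100% at 8-fold, with 7 false calls. The changed genes were drawn at random from all genes tested, at their own mean levels. Recovery at the low levels of most members was not measured, so these shares do not apply to them. Totals of 14.4 M to 117 M counts set the precision of low genes. Same-numbered libraries deviated together (correlations of 0.15, 0.29, 0.37 and 0.48 across genes). However, wild-type replicate 1 with knockout replicate 2 (0.60) and wild-type replicate 2 with knockout replicate 1 (0.39) correlated more highly than replicates 1 and 2 did by number. The labels do not say that equal replicate numbers pair embryos, so the main fit had no block. The replicate block was an alternative, and its values are given where they change a call. Named genes were the members, up to 4 called genes of each list, Dlx1, Dlx2, Dlx5 and Dlx6, and the 3 nearest profiles (prior count 2) of Otp, Msx3, Tal2 and Pax7. The members and lists were chosen with earlier results of these data known, and the neighbour comparison was added after the data were seen. Some genes that this rule or the lists hold are counted in the totals but are not reported here.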

Additional observations from a re-analysis of the deposited data

Results flagged for a closer look

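Each gene's levels were checked for a library far from the other 3 of its genotype, in 16 groups of 4. Chance alone marks about 1 in 20 groups of normally distributed values, a rate that low counts need not follow. Pax7 in wild-type replicate 1 was marked at 0.0263 CPM (3 reads). Since the other wild-type libraries had 0 reads, any value above 0 would have been marked, so nothing is read from this mark. Wild-type replicate 1 is the deepest library, where 3 reads are worth least. Foxd1 in knockout replicate 3 stood apart at 1.47 CPM, against 0.648 to 0.783 CPM in the other knockout libraries. That library was also the highest for Hmx2 and Pax7, and the cause was not tested.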

How the results depend on the processing

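Of 186 values recomputed under other settings, 164 stayed within their limits, 22 moved and 0 reversed. The replicate block gave 322 higher and 313 lower genes, DESeq2 228 and 240, and replicates 1 and 2 alone 178 and 202, against 85 and 130. Leaving out 1 library gave 50 to 66 higher and 92 to 121 lower genes, with fewest higher genes without wild-type replicate 1 (50) or knockout replicate 1 (50), then without wild-type replicate 3 (54), wild-type replicate 2 (55) or knockout replicate 4 (56). Of the other regional genes, 4 were called, 10 with DESeq2, 10 with the replicate block, 7 in replicates 1 and 2 alone, and 4 to 5 without any 1 library. Of markers of other cell types 1 was called, and 2 with the replicate block. Family relatives stayed at 0 and eminence identity genes at 12 to 13 without any 1 library. The block changed no call among the members.

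For the fold of mean CPM, leaving out 1 library gave 10.6 to 13.6 for Otp, 5.20 to 13.8 for Hmx2, 9.04 to 10.5 for Msx3, 3.85 to 4.63 for Tal2, 5.80 to 7.99 for Pax5, 2.15 to 2.41 for Otx2 and 1.24 to 1.70 for Foxd1. Replicates 1 and 2 alone gave 10.7 for Hmx2, 83.4 for Pax7 and 10.95 for Pax5, and replicates 3 and 4 alone 4.94 for Pax5. The fold of mean CPM for Pax7 was 172, resting on 3 wild-type reads, with 129 to 187 without any 1 library other than wild-type replicate 1. Without that library, and in replicates 3 and 4 alone, wild type had 0 Pax7 reads and no value was given. As the mean log2 ratio of same-numbered libraries (the replicate block), with a prior count that shrinks low values, the fold was 20.1 for Pax7 and 4.98 for Pax5. Low depth limits the folds of Pax5, Pax7 and Hmx2, with 12, 3 and 31 wild-type reads, and Hmx2 also varied between libraries, with 12 reads in wild-type replicate 4 and 1 and 2 in replicates 2 and 3.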
